A study of Arabidopsis thaliana with 24 samples.

Results

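The comparison asked how the loss of HD2C changed the response of Arabidopsis thaliana plants to a short heat stress, averaged over plants with and without BRM. The heat response of a genotype was the log2 level in heat minus that in control. The heat response of WT was subtracted from that of hd2c-3, the heat response of brm-1 was subtracted from that of brm-1 hd2c-3, and the mean of these 2 interactions is called the pooled interaction here. It was computed for every probe set with 1 named gene, 16746 of the 38408 deposited, and it drew on 24 of the 24 arrays. The 8 groups of 3 arrays were hd2c-3, WT (Col-0), brm-1 hd2c-3 (the double mutant) and brm-1, each after 1 h at 38 °C and in control conditions. All groups share the Col-0 ecotype. The plants were 3 weeks old and grew on soil with 16 h of light and 8 h of dark at 22 to 23 °C and 70% humidity. The labels name no organ, and each mutation is represented by a single allele. Per the design text, replicates were selected for the arrays because unnamed marker genes had similar levels in them, so the spread between replicates may be smaller than that between plants at large. HD2C, BRM and the other HD2 genes were not analysed here, as no probe set carries their names, so the genotype labels were not checked against the mutated genes.

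HD2C is a plant-specific histone deacetylase of the HD2 family, found in the nucleus and nucleolus, and deacetylated histones are generally associated with lower transcription. BRM is the ATPase of plant SWI/SNF complexes, which slide or evict nucleosomes. Heat stress in plants induces small heat shock proteins, which hold unfolding proteins, together with HSP70, HSP90 and their co-chaperones, and it activates the unfolded protein response in the endoplasmic reticulum. Growth and cell division are usually restrained at the same time.

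The deposited log2 intensities had array medians from 3.42 to 3.65, and the number of arrays limits the precision. A principal component analysis of the 16746 probe sets placed 43.7% of the variance on a first component that parted heat arrays from control arrays. Heat arrays of hd2c-3 had scores of 25.2, 39.0 and 38.1 on it, against 14.8, 21.8 and 22.0 for WT heat arrays. Scores of 37.7, 33.5 and 38.9 were found for heat arrays of the double mutant, against 24.2, 24.6 and 21.3 for brm-1 heat arrays. Control arrays of all genotypes lay between −30.4 and −24.9. The median SD of a probe set within a group was 0.194 in hd2c-3 heat, 0.165 in WT heat, 0.212 in double mutant heat and 0.172 in brm-1 heat, and 0.135 to 0.156 in the control groups. The p-values measure the spread between these samples. In such bulk samples, fewer cells of a type and less RNA per cell cannot be told apart.

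Averaged over plants with and without BRM, the heat response was called higher without HD2C for more genes than it was called lower. The pooled interaction was called for 249 probe sets of 249 genes, which is 1.49% of those tested, at an adjusted p under 0.05 in limma. It was higher without HD2C for 185 (1.1%) and lower for 64 (0.382%), and 68 of the higher and 5 of the lower ones differed at least 2-fold. At an unadjusted p under 0.05, 1054 were higher and 981 were lower. Of the 2 interactions taken alone, hd2c-3 against WT gave 0 calls and brm-1 hd2c-3 against brm-1 gave 391. The 185 higher genes had a median pooled interaction of 0.89. Their median heat response was 0.79 in hd2c-3 against 0.23 in WT, and 1.39 in brm-1 hd2c-3 against 0.07 in brm-1. For the 64 lower genes the median was −0.66, with a median heat response of −0.71 in hd2c-3 against −0.25 in WT and of −0.82 in brm-1 hd2c-3 against −0.04 in brm-1. Called values ran from 0.48 to 2.38 and from −1.15 to −0.42. The number of calls moved with single arrays: it was 394 without hd2c-3 heat replicate 1. It was 147 when brm-1 control replicate 2 was left out, 149 for brm-1 heat replicate 3, 157 for control replicate 1 of the double mutant and 165 for WT control replicate 3.

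**Figure D1:**
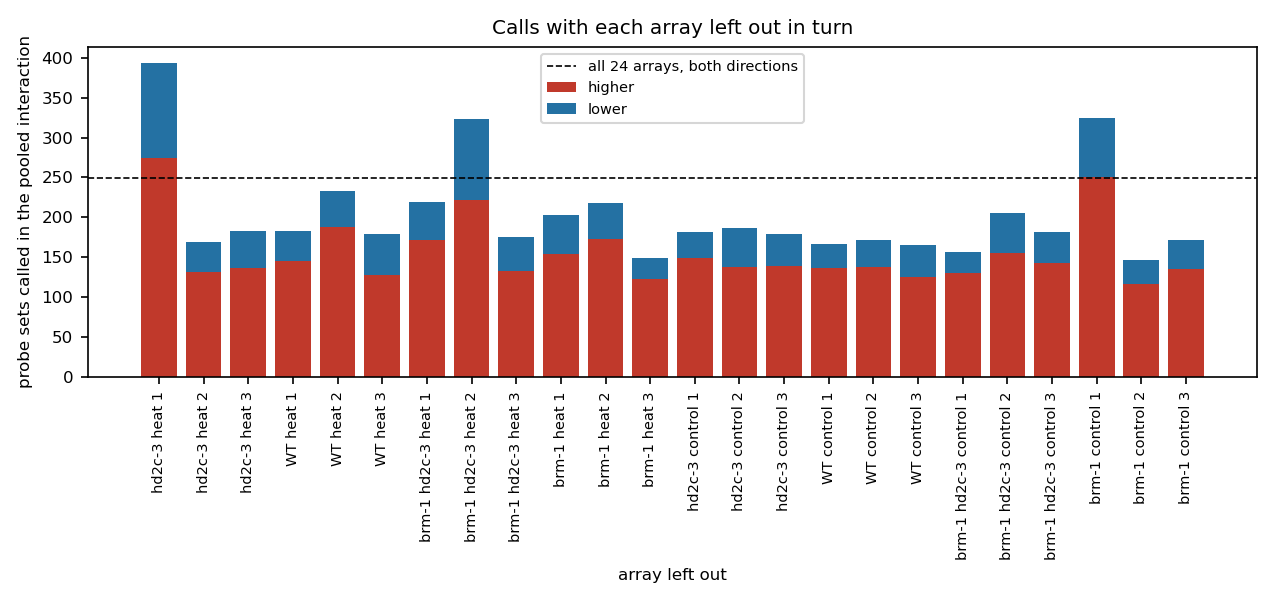
Number of probe sets called in the pooled interaction (vertical axis) with each of the 24 arrays left out in turn (horizontal axis), split into higher (red) and lower (blue); the dashed line is the count with all 24 arrays, 249. The counts range over 147 to 394, and in all 24 fits the higher calls outnumber the lower ones.

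Of the 249 genes, 131 kept their call in all 24 fits that left out 1 array, 111 of them higher and 20 lower. The values below are log2 levels on each array, and each ± is the moderated standard error of a difference, which pools the spread over all 8 groups. The genes named are the largest called rises and falls of the pooled interaction with a symbol, and called members of the gene lists. Some list members that were not called are also given, chosen outside this rule, and any other choice is marked as such. A gene given by its locus has no symbol in the gene table used here.

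ABR1, an AP2/ERF transcription factor known as a repressor of abscisic acid responses, had the largest pooled interaction, 2.38 ± 0.35 (adjusted p = 0.00114). Its heat levels were 5.20, 6.26 and 6.04 in hd2c-3, against 3.82, 4.87 and 4.45 in WT. They were 7.11, 6.14 and 6.93 in brm-1 hd2c-3, against 3.86, 3.90 and 4.15 in brm-1. In control conditions ABR1 was at 4.15, 5.05 and 4.68 in hd2c-3 against 4.80, 5.42 and 5.82 in WT, and at 3.66, 4.84 and 4.83 in brm-1 hd2c-3 against 3.83, 4.65 and 4.34 in brm-1. The mutant arrays lay above their comparators in heat without overlap and overlapped them in control. The heat response was thus 1.21 in hd2c-3 against −0.97 in WT and 2.28 in brm-1 hd2c-3 against −0.31 in brm-1. ABR1 was the single measured member of 28 loci listed for the abscisic acid response.

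COR47, a dehydrin induced by cold and water deficit, came next among the genes with a symbol, with a pooled interaction of 1.67 ± 0.23 (adjusted p = 0.000603). In heat it reached 8.82, 9.36 and 9.66 in hd2c-3, against 8.24, 8.56 and 8.48 in WT. The double mutant had 9.53, 9.35 and 9.85 in heat, against 7.88, 7.97 and 7.66 in brm-1. Part of this difference was present in control plants with the opposite sign: brm-1 hd2c-3 had 7.19, 7.20 and 6.96, below the 7.31, 8.08 and 8.06 of brm-1. Control levels were 8.93, 8.59 and 8.00 in hd2c-3 and 8.41, 8.58 and 8.70 in WT, which overlapped. COR47 responded to heat by 0.77 in hd2c-3 against −0.13 in WT and by 2.46 in brm-1 hd2c-3 against 0.02 in brm-1.

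**Figure D2:**
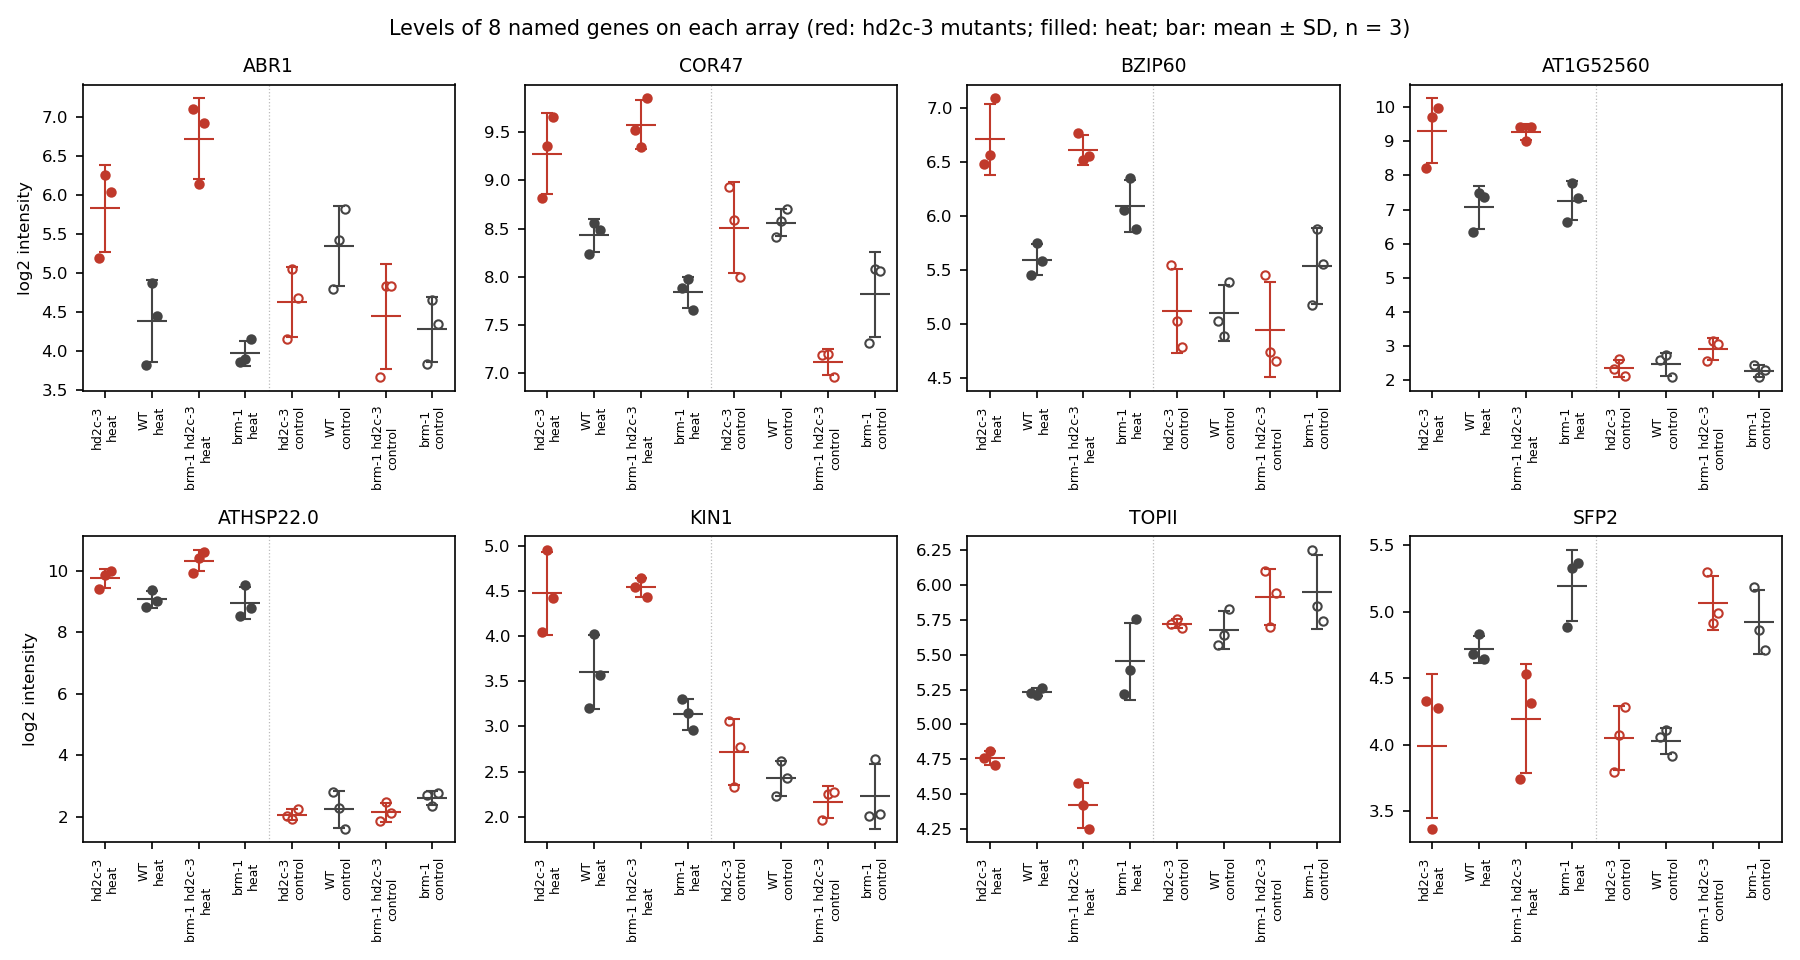
Log2 intensity (vertical axis) of 8 genes on each of the 24 arrays by group (horizontal axis), with hd2c-3 mutants in red, heat as filled and control as open points, and the mean ± SD of 3 arrays as bars. For ABR1, COR47, BZIP60, AT1G52560, ATHSP22.0 and KIN1 the heat arrays of the hd2c-3 mutants lie above those of the matching genotype, and for TOPII and SFP2 below.

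The cold and dehydration list was the list with the most called members relative to its size among those with at least 3 measured genes. Lists and their members were chosen with earlier results of these data known, so counts over this and the other lists only describe them. Of its 8 measured genes, 3 were called higher and 0 lower, against 1.1% higher over all probe sets. All 8 had positive values, with a median of 0.75 against 0.0033 over all probe sets, and the median was 0.30 in the interaction with BRM and 1.09 in the brm-1 background. Averaged over the 8 genes, control levels were 6.87 ± 0.05 in brm-1 hd2c-3 against 7.26 ± 0.34 in brm-1 (SD, n = 3 each). KIN1, a small hydrophilic protein induced by cold and abscisic acid, had heat levels of 4.04, 4.95 and 4.42 in hd2c-3 against 3.20, 4.03 and 3.57 in WT, and of 4.54, 4.64 and 4.44 in brm-1 hd2c-3 against 3.30, 3.15 and 2.96 in brm-1. The heat arrays did not overlap in either pair, although the gap between hd2c-3 and WT was small, and the pooled interaction of KIN1 was 1.02 ± 0.23 (adjusted p = 0.0216). Its call was lost without brm-1 control replicate 2 and without brm-1 heat replicate 3. KIN2, its neighbour and close relative, had a pooled interaction of 0.55 ± 0.12 (adjusted p = 0.0154). Its heat response was −0.19 in hd2c-3 against −0.58 in WT and 0.07 in brm-1 hd2c-3 against −0.64 in brm-1, so that KIN2 fell with heat in WT and brm-1 and did not pass the test in either hd2c-3 mutant. The coding sequences of KIN1 and KIN2 are much alike, so their signals may not be fully separate. The dehydrin LTI30 with 0.95 ± 0.30 (adjusted p = 0.14), AT1G51090 with 0.95 ± 0.27 (adjusted p = 0.0817) and the zinc finger factor STZ with 0.34 ± 0.34 did not pass the test. The chloroplast-protective COR15A and COR15B, at 0.24 ± 0.12 and 0.33 ± 0.15, did not pass either. With single arrays left out, 5 members were called without brm-1 control replicate 1, and 2 without brm-1 control replicate 2 or brm-1 heat replicate 3.

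Of 16 measured small heat shock protein genes, 3 were called higher and 0 lower, against 1.1% higher and 0.382% lower over all probe sets. AT1G52560 had heat levels of 8.23, 9.72 and 9.98 in hd2c-3 against 6.34, 7.49 and 7.36 in WT, and of 9.42, 9.002 and 9.41 in brm-1 hd2c-3 against 6.65, 7.79 and 7.33 in brm-1. Its control levels lay between 2.10 and 3.15 in all 4 genotypes, with those of brm-1 hd2c-3 above those of brm-1, and the heat arrays did not overlap in either pair. The pooled interaction of AT1G52560 was 1.87 ± 0.35 (adjusted p = 0.0072), with 2.36 with BRM and 1.38 in the brm-1 background. ATHSP22.0, the small heat shock protein of the endoplasmic reticulum, had heat levels of 9.41, 9.87 and 9.98 in hd2c-3 against 8.80, 9.37 and 9.02 in WT. It was at 9.94, 10.43 and 10.61 in brm-1 hd2c-3 against 8.54, 9.53 and 8.79 in brm-1, for a pooled interaction of 1.34 ± 0.27 (adjusted p = 0.0109). AT2G29500 was in heat at 10.94, 11.17 and 11.36 in hd2c-3 against 10.50, 10.68 and 10.51 in WT and at 11.04, 11.11 and 10.96 in brm-1 hd2c-3 against 10.75, 10.97 and 10.78 in brm-1. The heat arrays of brm-1 hd2c-3 and brm-1 overlapped slightly. Its control levels were low, at 2.02, 2.31 and 2.16 in hd2c-3 against 2.57, 2.56 and 2.49 in WT and at 2.52, 2.82 and 2.66 in brm-1 hd2c-3 against 2.81, 2.53 and 2.70 in brm-1. The pooled interaction of AT2G29500 was 0.59 ± 0.12 (adjusted p = 0.0148), of which 0.40 ± 0.09 was the effect of HD2C loss in heat (adjusted p = 0.00778) and −0.19 that in control. For ATHSP22.0, also low in control, these effects were 1.03 ± 0.19 (adjusted p = 0.00181) and −0.31. The interaction of AT2G29500 was 0.97 with BRM and 0.22 in the brm-1 background, and that of ATHSP22.0 was 0.86 and 1.83.

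The other small heat shock protein genes ran from −0.59 to 0.77 and did not pass the test. Named from the upper end of that range, AT5G51440 was at 0.77 ± 0.29 (adjusted p = 0.251) and AT1G53540 at 0.62 ± 0.22 (adjusted p = 0.195). At an unadjusted p under 0.05, 5 of the 16 were higher and 2 lower, against 1054 higher and 981 lower of all 16746 probe sets. The median over the 16 genes was 0.28, but 0.43 without hd2c-3 heat replicate 1 and 0.16 without brm-1 heat replicate 1. It was 0.70 in the interaction with BRM and 0.0035 in the brm-1 background. Their median heat response was 4.66 in hd2c-3 against 3.42 in WT and 4.26 in brm-1 hd2c-3 against 4.50 in brm-1. Averaged over the 16 genes, heat levels ran from 6.65 to 7.30 in hd2c-3 against 6.09 to 6.50 in WT, and from 6.95 to 7.24 in brm-1 hd2c-3 against 6.54 to 6.998 in brm-1. The hd2c-3 and WT ranges were apart, and those of the double mutant and brm-1 overlapped.

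None of the 3 measured HSP70 and related genes and none of the 13 co-chaperones and other heat-induced genes was called in limma. At an unadjusted p under 0.05, 3 and 6 of them were higher, against 1054 of 16746 over all probe sets. Without hd2c-3 heat replicate 1, 2 of the 3 and 1 of the 13 were called higher, and 1 of the 13 was called without brm-1 control replicate 3. Fes1A, a nucleotide exchange factor of cytosolic HSP70, was at 0.99 ± 0.36 (adjusted p = 0.222), with an interaction of 1.89 with BRM and 0.09 in the brm-1 background. HSA32, needed for long-lasting acquired thermotolerance, was at 0.84 ± 0.25 (adjusted p = 0.112), with 0.70 and 0.99. The Hop co-chaperones of HSP70 and HSP90 were at 0.35 ± 0.22 for Hop3 and 0.32 ± 0.14 for Hop2. Of the 13, 9 were positive, among them Fes1A, HSA32, Hop3 and Hop2, and values ran from −0.27 to 0.99. The 3 HSP70 and related genes ran from 0.35 to 0.67. The medians of the HSP70 and co-chaperone lists were 0.51 and 0.32. They were 1.16 and 0.70 in the interaction with BRM, but 0.18 and −0.01 in the brm-1 background. Heat shock factors were not analysed here, and DREB2C, a heat-induced AP2/ERF factor, was at 0.47 ± 0.16 (adjusted p = 0.185).

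Among 15 J-domain proteins, which deliver clients to HSP70, 0 were called higher and 1 was called lower, against 0.382% lower over all probe sets. This was AT3G14200, with a pooled interaction of −1.02 ± 0.22 (adjusted p = 0.0171). Its heat levels were 9.05, 9.39 and 9.64 in hd2c-3 against 8.96, 9.94 and 9.66 in WT, which overlapped. In brm-1 hd2c-3 they were 9.26, 9.22 and 9.32 against 10.04, 10.29 and 10.31 in brm-1, and the control levels there were 7.24, 7.58 and 7.78 in brm-1 hd2c-3 against 6.61, 6.60 and 6.51 in brm-1. AT3G14200 was therefore induced by heat in each genotype, by 1.78 in hd2c-3, 1.93 in WT and 1.73 in brm-1 hd2c-3, against 3.64 in brm-1. Its interaction was −0.14 ± 0.31 with BRM and −1.91 ± 0.31 in the brm-1 background. The difference of the 2 did not pass the test (adjusted p = 0.164). Over the 15 genes, 9 were positive, and values ran from −1.02 to 0.52 with a median of 0.05. At an unadjusted p under 0.05 in limma, 3 of the 15 were higher and 1 was lower.

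Of 9 measured genes that answer unfolded proteins in the endoplasmic reticulum, 1 was called higher and 0 lower. Over all probe sets, 1.1% were called higher. BZIP60, the transcription factor that the sensor kinase IRE1 activates by splicing its mRNA, had heat levels of 6.48, 6.57 and 7.09 in hd2c-3 against 5.46, 5.75 and 5.59 in WT. The double mutant had 6.78, 6.52 and 6.55 against 6.06, 6.35 and 5.88 in brm-1. Its pooled interaction was 1.10 ± 0.23 (adjusted p = 0.013), made of 1.09 ± 0.32 with BRM and 1.11 ± 0.32 in the brm-1 background. Heat levels did not overlap in either pair, and control levels overlapped in both. The membrane-tethered factor BZIP28 was at 0.36 ± 0.14 (adjusted p = 0.248) and its relative BZIP17 at −0.29 ± 0.22. The lumenal chaperone BIP1 was at 0.31 ± 0.41, with a median of 0.21 over the list. That median was 0.41 in the interaction with BRM and 0.003 in the brm-1 background.

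**Figure D3:**
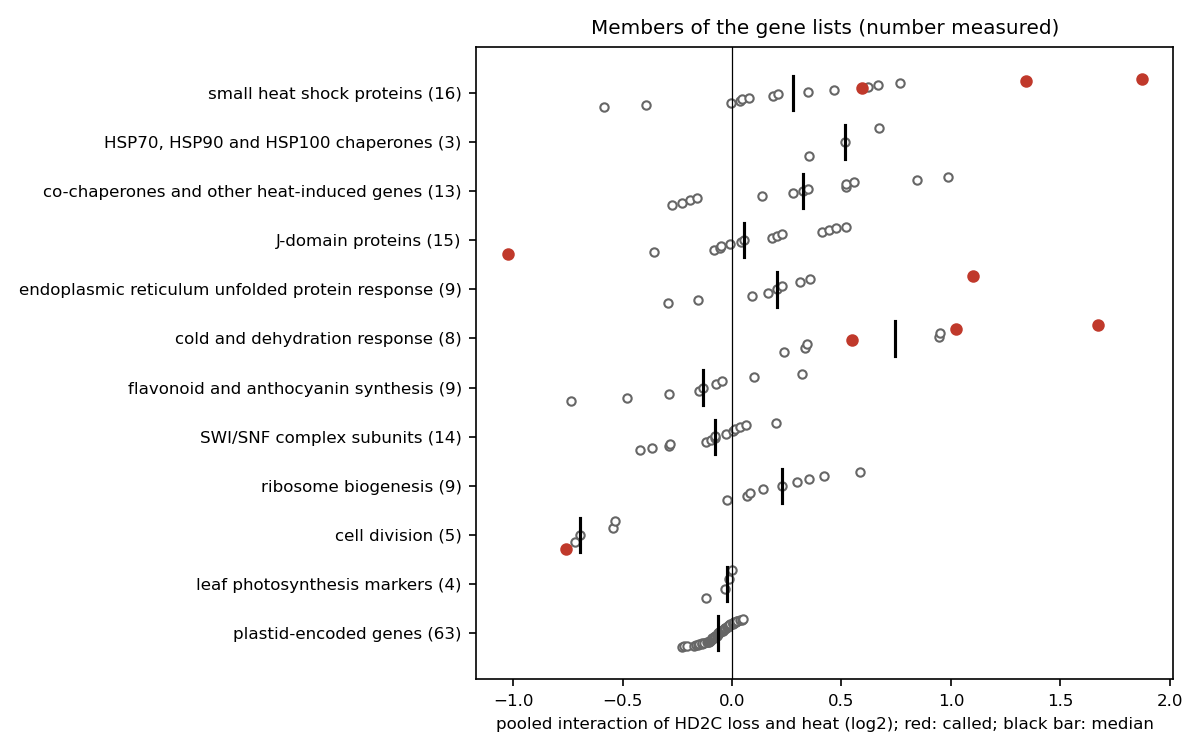
Pooled interaction (horizontal axis, log2) of the measured members of 12 gene lists (rows, number measured in parentheses), with called members in red, others open, and the list's median as a black bar. The cold and dehydration members all lie above 0 and the cell division members all below 0, while plastid-encoded genes lie within −0.23 and 0.05.

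Of the 12 largest rises with a symbol, 7 belonged to none of the gene lists. The pooled interaction of NTMC2T6.2, a membrane-anchored C2-domain protein, was 1.44 ± 0.26 (adjusted p = 0.00395). That of SRC2, a C2-domain protein first described as cold-regulated, was 1.43 ± 0.28 (adjusted p = 0.0095). TET8, a tetraspanin of the plasma membrane and of extracellular vesicles, was at 1.07 ± 0.16 (adjusted p = 0.00127). SEC1B, a Sec1/Munc18 protein of vesicle fusion, was at 1.02 ± 0.17 (adjusted p = 0.00233). NDB2, an alternative NAD(P)H dehydrogenase of the outer face of the inner mitochondrial membrane, was at 1.01 ± 0.17. HEMA2, a glutamyl-tRNA reductase of tetrapyrrole synthesis, was at 0.97 ± 0.20. SEC1B responded to heat by 0.28 in hd2c-3 against −0.49 in WT and by 0.59 in brm-1 hd2c-3 against −0.68 in brm-1, of which those of brm-1 hd2c-3 and brm-1 passed the test. NDB2 responded by 0.38 in hd2c-3 against −0.09 in WT and by 1.32 in brm-1 hd2c-3 against −0.22 in brm-1, and that of brm-1 hd2c-3 alone passed. In control, both genes were lower in brm-1 hd2c-3 than in brm-1 on all arrays, SEC1B with 5.51, 5.41 and 5.55 against 5.60, 6.06 and 5.93 and NDB2 with 3.98, 4.15 and 4.10 against 4.37, 4.79 and 4.64. The call of GLR2.8, a glutamate receptor-like channel, was close to the threshold at 1.21 ± 0.30 (adjusted p = 0.0462) and was kept in 6 of 24 fits with an array left out. Its heat levels overlapped in both pairs, whereas the double mutant lay below brm-1 in control, with 4.57, 4.29 and 4.23 against 4.72, 5.55 and 5.16.

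**Figure D4:**
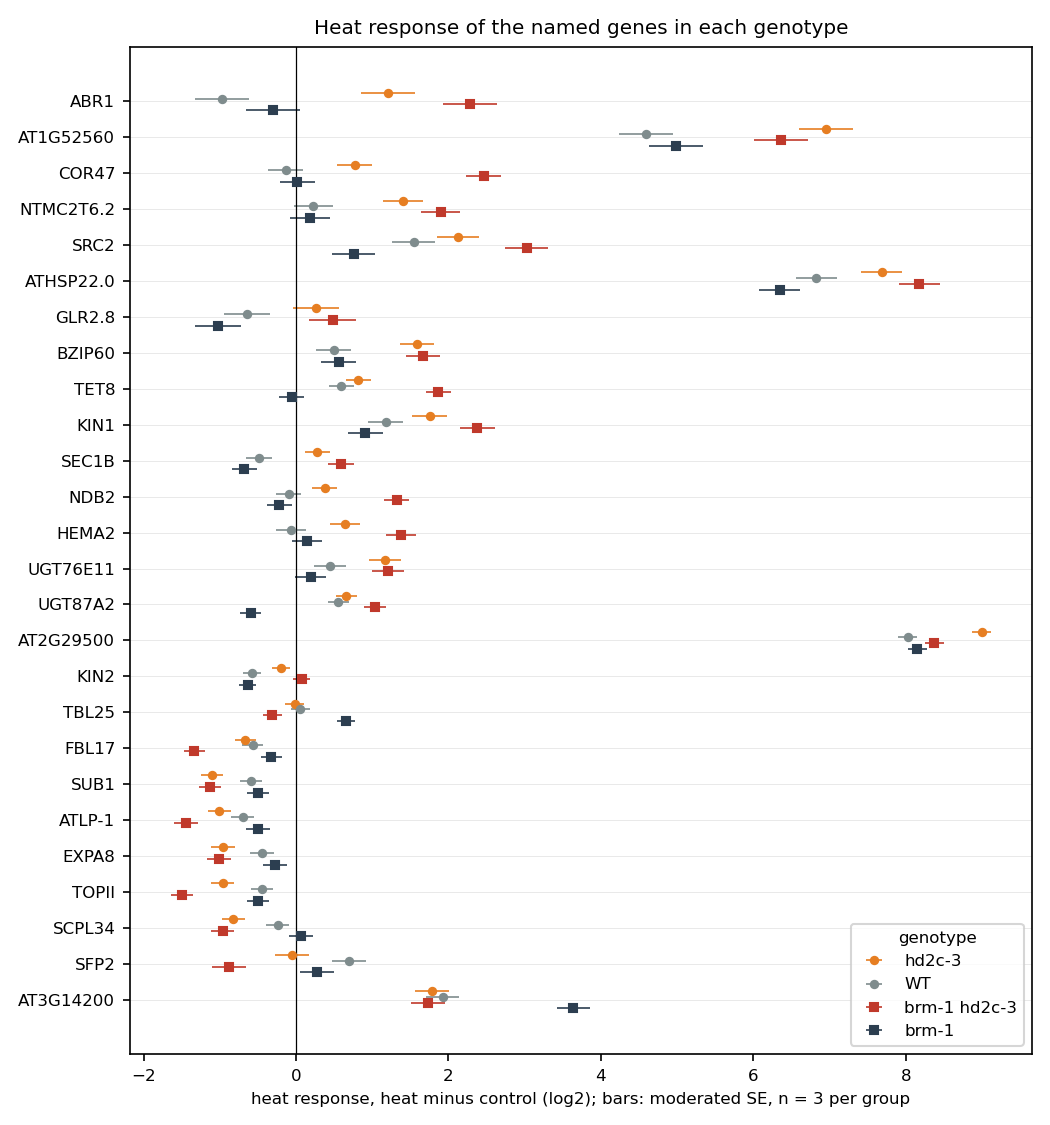
Heat response (horizontal axis, heat minus control, log2, ± moderated SE, n = 3 per group) of the genes named by the rule (rows) in hd2c-3, WT, brm-1 hd2c-3 and brm-1. For ABR1 both hd2c-3 mutants lie right of 0, at 1.21 and 2.28, and WT and brm-1 left of it, at −0.97 and −0.31, while the 3 small heat shock protein genes were induced in all 4 genotypes.

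Some of the largest rises had no symbol and were picked after their values were seen. AT2G42150 had heat levels of 3.58, 4.76 and 5.08 in hd2c-3 against 2.58, 2.68 and 2.40 in WT, and of 5.003, 4.83 and 5.80 in brm-1 hd2c-3 against 2.96, 3.74 and 2.41 in brm-1. With control levels between 2.06 and 2.49 in all genotypes, its pooled interaction was 2.20 ± 0.30 (adjusted p = 0.000603). AT1G32860 was at 1.46 ± 0.18 (adjusted p = 0.000359) with a heat response of 1.18 in hd2c-3 against 0.03 in WT and of 1.75 in brm-1 hd2c-3 against −0.00075 in brm-1. Both loci were called in all 24 fits with an array left out.

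Genes with a lower pooled interaction included 8 with a symbol that the rule named, and their values were smaller than those of the rises. TOPII, the DNA topoisomerase that untangles chromosomes, had heat levels of 4.76, 4.81 and 4.71 in hd2c-3 against 5.22, 5.21 and 5.26 in WT, and of 4.58, 4.42 and 4.25 in brm-1 hd2c-3 against 5.22, 5.39 and 5.76 in brm-1. Control levels overlapped in both pairs, between 5.57 and 6.25. Heat thus lowered TOPII in each genotype, by more in the hd2c-3 mutants, with responses of −0.96 in hd2c-3 against −0.45 in WT and −1.50 in brm-1 hd2c-3 against −0.49 in brm-1. The pooled interaction of TOPII was −0.76 ± 0.15 (adjusted p = 0.00846). It was the called gene among 5 measured cell division genes, of which 0 were called higher, against 0.382% called lower over all probe sets. The median of the 5 was −0.70, with −0.39 with BRM and −0.89 in the brm-1 background. With array weights 4 of the 5 were called lower, and 2 without hd2c-3 heat replicate 1. The mitotic kinases AUR1, AUR2 and AUR3 were at −0.72 ± 0.21 (adjusted p = 0.105), −0.54 ± 0.16 (adjusted p = 0.103) and −0.53 ± 0.17 (adjusted p = 0.133). BUBR1, of the spindle checkpoint, was at −0.70 ± 0.21 (adjusted p = 0.102). Averaged over the 5 genes, heat levels ran from 4.08 to 4.40 in hd2c-3 against 4.34 to 4.64 in WT, which overlapped, and from 3.76 to 3.998 in brm-1 hd2c-3 against 4.58 to 4.86 in brm-1, which did not. FBL17, an F-box protein that removes inhibitors of cyclin-dependent kinases, was outside that list and was at −0.55 ± 0.14 (adjusted p = 0.0434), a call kept in 6 of 24 fits with an array left out.

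SFP2, a sugar transporter-like protein, had the most negative value with a symbol, −0.95 ± 0.22 (adjusted p = 0.0314). Its heat levels were 4.33, 3.37 and 4.28 in hd2c-3 against 4.68, 4.83 and 4.64 in WT, and 3.74, 4.54 and 4.31 in brm-1 hd2c-3 against 4.89, 5.33 and 5.37 in brm-1. Neither pair overlapped in heat. The call of SFP2 was kept in 13 of 24 fits with an array left out. SCPL34, a serine carboxypeptidase-like protein, was at −0.80 ± 0.15 (adjusted p = 0.0078) and was called in all 24. It responded to heat by −0.82 in hd2c-3 against −0.24 in WT and by −0.96 in brm-1 hd2c-3 against 0.07 in brm-1. The expansin EXPA8, which loosens cell walls, was at −0.63 ± 0.16 (adjusted p = 0.0433, kept in 5 of 24), and the thaumatin-like ATLP-1 at −0.63 ± 0.16 (adjusted p = 0.0423, kept in 7 of 24). TBL25, of a family that acetylates wall polysaccharides, was at −0.52 ± 0.12 (adjusted p = 0.0301, kept in 13 of 24), and SUB1, a calcium-binding protein of light signalling, at −0.57 ± 0.14 (adjusted p = 0.0458, kept in 4 of 24). Among loci without a symbol, picked after their values were seen, AT3G02640 was at −1.15 ± 0.20 (adjusted p = 0.00294) and AT5G16250 at −0.96 ± 0.12 (adjusted p = 0.000359). AT5G16250 had heat levels of 5.14, 4.84 and 4.93 in hd2c-3 against 5.37, 5.39 and 5.63 in WT, and of 4.41, 4.48 and 4.49 in brm-1 hd2c-3 against 5.59, 5.68 and 5.52 in brm-1, without overlap in either pair.

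The 2 interactions that make up the pooled value come from separate arrays, and they contributed unequally. With BRM present limma called 0 probe sets (0%), although 1119 had an unadjusted p under 0.05, 680 higher and 439 lower. In the brm-1 background it called 391 (2.33%), 271 higher and 120 lower. Across the 16746 probe sets, Pearson's r between the 2 interactions was 0.174 and Spearman's rho 0.121, over genes that are not independent and share the arrays of each pair. Of the 271 called higher in the brm-1 background, 75.6% were also positive with BRM, with medians of 1.19 and 0.27. Among the 120 called lower there, 61.7% were also negative with BRM, with medians of −0.92 and −0.06, while 53.1% of all probe sets had the same sign in both. The 185 genes higher in the pooled interaction had medians of 0.56 with BRM and 1.20 in the brm-1 background, and the 64 lower had −0.51 and −0.84. These genes were called on the mean of the 2 interactions, which favours a shared sign. The count with BRM moved from 0 in 2 of the 24 fits that left out 1 array, and was highest, at 70, without hd2c-3 heat replicate 1. That array had the lowest level of the 185 higher genes in its group, with a median deviation of −0.35 from the level of its group, against −0.01 over all probe sets. In the brm-1 background the count was 168 without brm-1 control replicate 2.

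**Figure D5:**
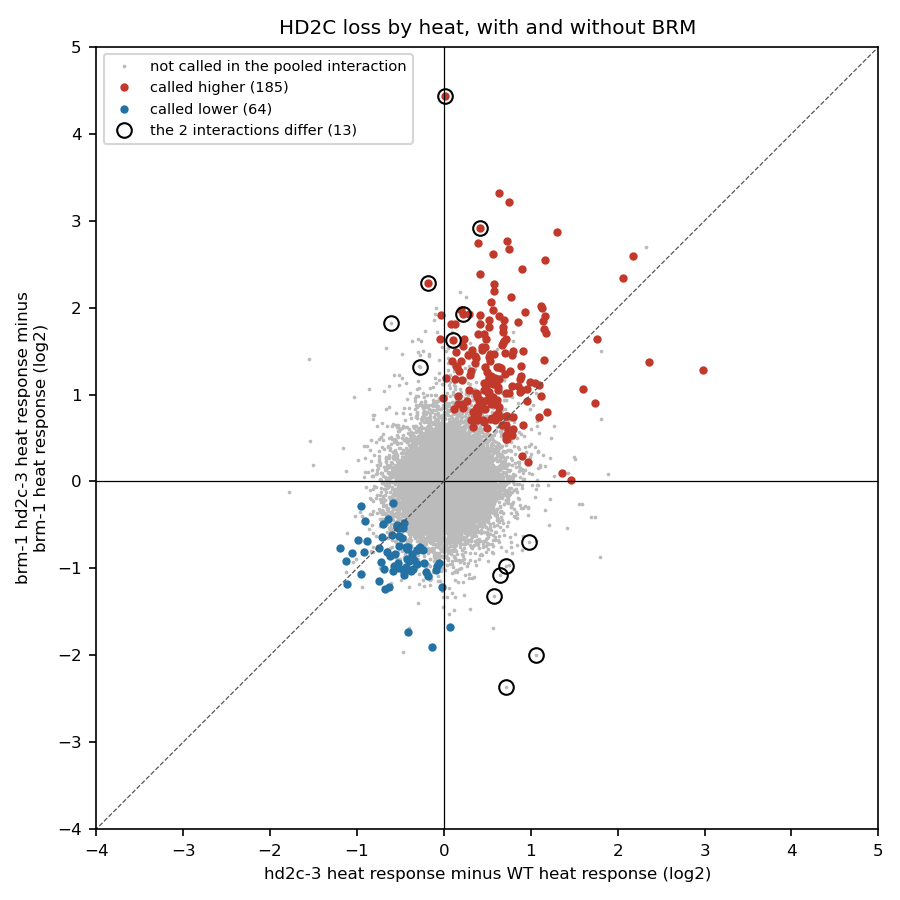
Interaction of HD2C loss and heat with BRM (horizontal axis, hd2c-3 heat response minus WT heat response, log2) and in the brm-1 background (vertical axis, brm-1 hd2c-3 heat response minus brm-1 heat response, log2) for 16746 probe sets. The 185 called higher (red) and 64 called lower (blue) in the pooled interaction lie mainly in the quadrants where both have the same sign. They were called on the mean of the 2 axes, so this placing largely follows from the choice. Over all probe sets, 53.1% had the same sign in both. Black circles mark the 13 probe sets whose 2 interactions differ.

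The difference of the 2 interactions itself, that in the brm-1 background minus that with BRM, was called for 13 probe sets (0.0776%). It was positive for 7 and negative for 6. All 6 negative ones had a positive interaction with BRM and a negative one in the brm-1 background. Among them bZIP42, picked after its values were seen, had 0.71 and −2.36. With array medians made equal the count was also 13, but 15.4% of the called differences were positive, against 53.8% with the values as deposited. The median over all probe sets was then −0.14, against −0.05. For such genes the pooled mean stands for neither pair. AT1G70640, picked after its values were seen, had heat levels of 7.62, 7.91 and 7.501 in hd2c-3 against 6.38, 7.15 and 6.61 in WT, and control levels of 8.37, 7.92 and 7.87 in hd2c-3 against 6.83, 7.002 and 7.47 in WT. In heat it was at 7.37, 6.79 and 8.21 in brm-1 hd2c-3 against 3.31, 4.48 and 4.11 in brm-1. Its control levels were 3.99, 3.69 and 3.89 in brm-1 hd2c-3 against 3.56, 5.23 and 5.62 in brm-1. Its interaction was 0.01 ± 0.56 with BRM and 4.44 ± 0.56 in the brm-1 background, and its pooled value of 2.23 ± 0.39 came from the second pair. TET8, named above, had 0.22 ± 0.23 and 1.92 ± 0.23, a difference of 1.70 ± 0.33 (adjusted p = 0.0431), a call kept in 5 of 24 fits with an array left out and lost with equal array medians, with all deposited probe sets, without moderation and with a replicate block. ATPMEPCRB, a pectin methylesterase picked after its values were seen, had −0.19 ± 0.29 and 2.28 ± 0.29, and the sign of its 2 interactions was opposite.

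The pooled interaction is the effect of HD2C loss in heat minus that in control, each averaged over BRM. In heat the effect was called for 1010 probe sets (6.03%), 560 higher and 450 lower, and in control for 4 (0.0239%), 3 higher and 1 lower. The share of higher calls in heat was 55.4%, but 66.6% with equal array medians, 68.2% after cyclic loess and 42.5% with dim probe sets left out. With only the 12 heat arrays in the fit, 362 were called in heat. For the 185 genes higher in the pooled interaction, the median was 0.80 in heat and −0.11 in control, and for the 64 lower genes −0.51 and 0.11. AT5G22430 was an exception, picked after its values were seen: its effect was 0.01 in heat and 1.08 in control, where brm-1 hd2c-3 had 4.69, 4.26 and 4.56 against 2.70, 2.89 and 2.82 in brm-1, for a pooled interaction of −1.08 ± 0.25 (adjusted p = 0.0292). The other three genes called in control were AT1G02190 at 0.76, AT2G20870 at 1.37 and AT3G01345 at −2.90. AT3G01345 averaged 3.13 ± 0.09 in hd2c-3 against 9.32 ± 0.15 in WT in control (SD, n = 3 each) and 4.58 ± 0.59 in brm-1 hd2c-3 against 4.20 ± 0.99 in brm-1, so its pooled control value came from the first pair. With 1 array left out the number of calls in control lay between 1 and 5.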

How the data were processed

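The 24 arrays were Affymetrix arrays of 8 groups of 3. The deposited table holds log2 intensities per probe set; per the submitters' processing notes, they were made with RMA and Partek, with no versions given. RMA normalises the arrays together, which can shrink a shift shared by many genes. Of 38408 probe sets, 16746 name 1 gene, 758 name several and 20904 have no name here; 16741 of the 16746 matched the TAIR10.1 gene table, used for names only. They cover 16552 genes, 165 of them with more than 1 probe set, and each probe set was tested on its own.

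One linear model with a mean for each of the 8 groups was fitted across the 16746 probe sets with limma 3.58.1 in R 4.3.3 (16 residual and 6.23 prior degrees of freedom), and a contrast was called where its p, adjusted by Benjamini-Hochberg, was under 0.05. The code was tested on simulated data. The alternatives were other scalings, filters, variance priors, weights, a replicate block and each array left out.

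Genes named are the 12 largest rises and falls that have a symbol and the same sign in both interactions, fewer where fewer were called, and up to 4 called members of each list. List members that were not called, and genes picked after their values were seen, lie outside this rule. Of 468 loci in 22 lists, 127 have a probe set, and 7 further families were taken by name. Members and lists were chosen with earlier results of these data known. Figures were drawn with matplotlib 3.10.9.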

Additional observations from a re-analysis of the deposited data

Results flagged for a closer look

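For 13 probe sets the interaction of HD2C loss and heat differed between the brm-1 background and plants with BRM, by limma's test of the difference itself (interaction in the brm-1 background minus interaction with BRM, log2). The difference was positive for 7. It was 4.43 for AT1G70640 (adjusted p = 0.0327), 2.50 for AT3G04010 (adjusted p = 0.0234), 2.46 for the pectin methylesterase gene ATPMEPCRB (adjusted p = 0.0226) and 2.43 for AT3G59880 (adjusted p = 0.0405). It was 1.70 for the tetraspanin gene TET8 (adjusted p = 0.0431), 1.60 for AT2G15020 (adjusted p = 0.0356) and 1.53 for the glycosyltransferase gene UGT87A2 (adjusted p = 0.038). The difference was negative for 6. It was −3.08 for bZIP42, which encodes a bZIP transcription factor (adjusted p = 0.0327), −3.06 for AT5G23480 (adjusted p = 0.0226) and −1.90 for AT5G41761 (adjusted p = 0.038). It was −1.73 for AT1G69360 (adjusted p = 0.0387), −1.68 for AT1G27420 (adjusted p = 0.0226) and −1.68 for AT1G35660 (adjusted p = 0.0432). The heat levels of AT5G23480 were 5.02, 5.95 and 5.77 in hd2c-3 against 4.01, 5.07 and 4.32 in WT, and 6.01, 6.77 and 6.33 in brm-1 hd2c-3 against 7.504, 7.92 and 7.75 in brm-1. All 13 lost their call without variance moderation, and each kept it in 5 to 16 of 24 fits with an array left out. The genes of this paragraph other than TET8 and UGT87A2 were picked after their values were seen.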

How the results depend on the processing

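The pooled interaction gave 203 to 342 calls under 10 of the 11 other settings, against 249, and 436 with dim probe sets left out, where 60.8% were higher against 74.3%. With 1 array left out it gave 147 to 394. Of the 34 genes named for it, 24 kept their call in every fit with 1 array left out, 24 under every other setting, and 0 changed sign. The interaction with BRM, with 0 calls, gave 3 each with all deposited probe sets, cyclic loess or equal array medians, 2 with dim probe sets left out and with an intensity trend, 7 with array weights, 1 with only the WT and hd2c-3 arrays, and 0 to 70 with 1 array left out. In the brm-1 background 391 calls became 631 with dim probe sets left out (55.9% higher against 69.3%), 196 with only the brm-1 and double mutant arrays, and 168 to 554 with 1 array left out. The difference of the 2 interactions, with 13 calls, gave 40 with dim probe sets left out, 29 with an intensity trend, 22 with array weights, 0 without moderation and 0 to 62 with 1 array left out. HD2C loss in heat, with 1010 calls, gave 1619 with all deposited probe sets, 564 with weights for heat and control arrays, 362 with only the heat arrays and 637 to 1412 with 1 array left out. HD2C loss in control, with 4 calls, gave 1 without moderation, 1 with only the control arrays and 1 to 5 with 1 array left out. The cause of these shifts was not tested. Whether the replicate numbers pair the samples was not settled, and the main fit used no block. Of 84 correlations between same-numbered samples, 25 exceeded 0.1 (−0.222 to 0.411), and 14 of 24 arrays were closest on average to their own number. The highest, 0.411, was between brm-1 heat and double mutant heat replicate 1. The lowest, −0.222, was between double mutant control and double mutant heat replicate 1. A replicate block gave 265 calls in the pooled interaction, 2 with BRM, 436 in the brm-1 background, 9 for the difference, 1109 in heat and 5 in control.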

Other observations

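Of 60 probe sets of UDP-glycosyltransferases, enzymes that attach sugars to hormones and secondary metabolites, 2 were called higher and 0 lower in the pooled interaction, against 1.1% higher and 0.382% lower over all probe sets. Between 1 and 3 were called with 1 array left out, and the median was 0.10, but 0.05 without brm-1 heat replicate 2. UGT76E11 was at 0.87 ± 0.21 (adjusted p = 0.0369, limma), with heat levels of 6.14, 6.73 and 6.74 in hd2c-3 against 5.73, 6.03 and 5.81 in WT and of 6.16, 5.86 and 6.38 in brm-1 hd2c-3 against 5.23, 5.21 and 4.86 in brm-1. Its call was kept in 9 of 24 fits with an array left out. UGT87A2 was at 0.87 ± 0.14 (adjusted p = 0.00197), with 0.10 with BRM and 1.63 in the brm-1 background. Among 35 probe sets of expansins and xyloglucan endotransglucosylases, which remodel the cell wall, EXPA8 was called lower and 0 were called higher, and values ran from −0.63 to 0.74.

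None of 25 cytochrome P450, 9 ribosome biogenesis, 14 SWI/SNF subunit, 9 flavonoid synthesis or 63 plastid-encoded probe sets was called in limma. At an unadjusted p under 0.05, 1054 of all 16746 probe sets were higher and 981 lower. For these lists the higher and lower counts were 1 and 2 for cytochrome P450 genes and 2 and 0 for ribosome biogenesis. They were 0 and 3 for SWI/SNF subunits, and 0 and 0 for the flavonoid and plastid-encoded lists. The medians of the 5 lists were 0.05, 0.23, −0.08, −0.13 and −0.06 in that order.

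The smaller lists also held 0 called members: 6 probe sets of chaperonins, 3 of oxidative stress, 2 of histone deacetylases and acetyltransferases, 3 of salicylic acid and defence, 1 of the circadian clock, 4 leaf, 5 root and 4 stomatal markers, 1 cytosolic ribosomal protein, 3 mitochondrion-encoded probe sets and 6 histones. At an unadjusted p under 0.05, 1 histone was lower and the others had 0 in either direction by limma. Jasmonate genes and floral markers were not analysed here.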
